A study of Mus musculus with 11 samples.

Results

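The regions described here are the open-chromatin regions of mouse chromosome 13 whose start lies from 65 to 68 Mb in mm10, an interval that holds a cluster of zinc finger genes. They were taken by position alone and number 478 of the 248336 regions in the table. ATAC-seq, which maps open DNA by the cuts of the transposase Tn5, was run on 4 lines of mouse embryonic stem cells. The line called B6 is cell line B6 5-1 of strain C57BL/6J, with 3 libraries, and D2 is cell line D2 5-5 of strain DBA/2J, with 3 libraries. B6-13D2 is cell line QJ 6-1 of the congenic strain B6.D2-(rs30079041-rs51756099)/Bakr, which has a D2 stretch of chromosome 13 in a B6 genome, with 2 libraries. D2-13B6 is cell line XE 2-4 of the reciprocal strain D2.B6-(rs29224292-rs13469455)/Bakr, which has a B6 stretch in a D2 genome, with 3 libraries. The series' design text ends the name of this strain with rs51756099 instead, so the distal end of its B6 stretch was not settled here. All lines grew in serum medium with LIF, PD0325901 (an inhibitor of MEK) and CHIR99021 (an inhibitor of GSK3). Each genotype was 1 cell line and the libraries are technical replicates, so errors and p-values measure the spread between libraries of a line.

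Most zinc finger genes of this kind encode KRAB zinc finger proteins. Their fingers bind DNA, and their KRAB domain recruits the co-repressor TRIM28 and the histone methyltransferase SETDB1, which lay down H3K9 methylation and keep retroelements silent in embryonic stem cells. Such genes sit in clusters that grow by tandem duplication and that differ between strains in copy number and sequence.

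Zinc finger genes fill the distal stretch of the cluster and are few in the rest. The stretch from 67 to 68 Mb held 59 annotated genes, of which 32 were protein-coding and 25 were on the zinc finger list. The stretch from 65 to 67 Mb held 115 genes, of which 75 were pseudogenes, 20 were lincRNAs and 16 were protein-coding, with 4 on the zinc finger list. Its pseudogenes included 11 of the Vmn2r vomeronasal receptors and 4 of Cbx3, the gene of a heterochromatin protein. The proximal stretch had 349 of the regions and the distal stretch had 129.

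Near-copies are a property of the proximal stretch. A region was called similar to another when they aligned over at least 200 bp at 85% identity or more. In the proximal stretch 73.1% of regions had a similar region within the cluster, and in the distal stretch 32.6% had one. Grouping similar regions gave 34 families of 2 or more regions, which held 297 regions, and the family with the most members had 74. Counting every stretch of 100 bases that occurs again in the genome, 78.8% of proximal regions and 35.7% of distal regions had at least 1, against 10.8% of the chromosome 13 regions outside the cluster. Where the counting placed reads that fit several copies is not given in the sources used here. Copy number in each line was not measured, and its part in the counts below was not tested.

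The first set of sequences shows how alike members of a family can be while their counts moved in opposite directions. It gives the same 240 bases in 3 members of a family of 36 regions, from GRCm38, all written in one orientation with capitals at the 16 positions where the copies were not all equal.
Copy in the region that rose, chr13:66589319-66589558, plus strand: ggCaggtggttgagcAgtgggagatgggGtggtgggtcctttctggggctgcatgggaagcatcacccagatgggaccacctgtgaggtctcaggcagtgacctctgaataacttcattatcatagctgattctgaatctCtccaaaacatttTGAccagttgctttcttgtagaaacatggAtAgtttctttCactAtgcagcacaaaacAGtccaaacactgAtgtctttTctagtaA
Copy in the region that fell, chr13:66753282-66753521, plus strand: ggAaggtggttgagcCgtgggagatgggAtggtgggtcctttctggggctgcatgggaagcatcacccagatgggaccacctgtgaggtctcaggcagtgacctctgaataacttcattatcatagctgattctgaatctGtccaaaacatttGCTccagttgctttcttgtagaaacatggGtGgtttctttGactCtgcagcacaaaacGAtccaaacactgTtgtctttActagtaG
Other copy of the one that fell, chr13:66401493-66401732, minus strand: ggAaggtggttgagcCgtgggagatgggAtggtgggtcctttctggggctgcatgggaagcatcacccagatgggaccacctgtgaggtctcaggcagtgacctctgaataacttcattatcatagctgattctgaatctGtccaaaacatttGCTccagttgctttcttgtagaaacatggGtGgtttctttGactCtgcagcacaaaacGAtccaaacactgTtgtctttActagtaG
In this window the copy that fell and the third copy were equal at every base, and the copy that rose carried the other letter at each capital. Over the full alignment of 1158 bp, the regions that rose and fell were 96.2% identical.

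The next pair shows the strongest region that rose beside its closest relative, which was 99.1% identical over 1317 bp. Capitals mark the 4 of 240 positions at which these copies differ.
Copy in the strongest region, chr13:65990881-65991120, plus strand: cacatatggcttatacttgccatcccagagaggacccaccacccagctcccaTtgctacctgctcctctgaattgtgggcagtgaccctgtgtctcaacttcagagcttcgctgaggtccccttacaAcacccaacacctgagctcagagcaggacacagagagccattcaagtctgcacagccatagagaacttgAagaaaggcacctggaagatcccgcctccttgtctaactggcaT
Its closest relative, chr13:66625823-66626062, minus strand: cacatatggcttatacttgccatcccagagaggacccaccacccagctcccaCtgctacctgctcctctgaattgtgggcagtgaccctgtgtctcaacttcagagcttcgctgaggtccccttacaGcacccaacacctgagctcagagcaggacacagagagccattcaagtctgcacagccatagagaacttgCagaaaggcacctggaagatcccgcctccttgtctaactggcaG
Both regions were higher in the lines with the D2 interval, by very different amounts given further on.

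A region with no count in either B6-13D2 library is shown by its central 300 bases. It is all in lower case because motifs were not marked in it, though it does hold GGGCGG, the GC box of the next paragraph. The whole region is masked as repeat in the reference.
Centre of the fully masked region, chr13:66834966-66835265, plus strand: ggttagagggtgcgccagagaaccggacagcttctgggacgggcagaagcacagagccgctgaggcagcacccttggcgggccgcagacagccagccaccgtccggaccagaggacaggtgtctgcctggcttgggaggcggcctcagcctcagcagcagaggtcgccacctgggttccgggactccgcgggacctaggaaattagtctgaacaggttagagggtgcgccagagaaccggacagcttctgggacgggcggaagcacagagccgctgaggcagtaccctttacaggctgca

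Promoters of a pair of zinc finger genes stand for the distinct ways in which promoters of the cluster behaved. 2410141K09Rik lies in the proximal stretch and followed the interval, and Zfp712 lies in the distal stretch and did not. The 250 bases before each start site are given from RefSeq (GRCm38.p6). Capitals would mark the GC box GGGCGG on either strand, which 32.7% of 32851 RefSeq promoters of that length hold and which neither of these holds.
2410141K09Rik promoter, chr13:66441119-66441368, minus strand: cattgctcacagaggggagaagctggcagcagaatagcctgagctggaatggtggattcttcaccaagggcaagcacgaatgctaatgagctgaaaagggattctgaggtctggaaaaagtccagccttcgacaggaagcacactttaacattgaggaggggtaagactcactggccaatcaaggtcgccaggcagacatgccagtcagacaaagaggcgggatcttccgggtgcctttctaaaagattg
Zfp712 promoter, chr13:67061171-67061420, minus strand: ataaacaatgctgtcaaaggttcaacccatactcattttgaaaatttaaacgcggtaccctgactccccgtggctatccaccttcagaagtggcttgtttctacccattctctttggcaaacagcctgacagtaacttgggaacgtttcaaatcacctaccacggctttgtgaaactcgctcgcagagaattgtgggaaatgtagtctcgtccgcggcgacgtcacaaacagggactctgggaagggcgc

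Total counts per library ran from 15198496 to 43042955. Of the 478 regions, 450 had enough counts to be tested. The other 28 had at most 14 counts in any library, 26 of them lay in the proximal stretch, and 15 consisted wholly of repeated 100-base stretches. The D2-13B6 libraries stood apart from the rest over the whole table. Promoters of 10 embryonic stem cell markers summed to 229 to 279 normalised CPM (counts relative to the scaled library total) in D2-13B6 and to 325 to 359 in the other lines, although Klf4 alone was higher there (mean 69.2, against 34.0 to 52.1). Promoter regions of 5 of 7 fibroblast markers summed to 74.7 to 98.9 in D2-13B6 and to 32.2 to 50.2 elsewhere, and Col3a1 and Lum had no region. Of these markers, Postn did not stand apart in D2-13B6 (mean 1.17, against 0.88 to 1.28). Primitive endoderm markers summed to 80.6 to 97.1 in D2-13B6 and 82.2 to 96.7 elsewhere, with Gata6 higher (36.4, against 21.9 to 26.8) and Sox17 lower (17.1, against 23.0 to 27.2), and neural and mesoderm markers to 49.2 to 56.9 and 63.9 to 73.5. Their part in the results below was not tested. Marker promoters show accessibility, not expression.

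The first question was whether accessibility in the cluster follows the strain of origin of the interval. In the B6 background, 123 of 450 tested cluster regions were higher and 35 were lower in B6-13D2 than in B6 (edgeR's quasi-likelihood test, adjusted p under 0.05). That is 35.1% of the cluster regions, and over all 246840 tested regions of the genome 0.474% were called (0.139% higher, 0.335% lower). In the D2 background, 247 were higher and 26 were lower in D2 than in D2-13B6, which is 60.7%, against 23.7% of all tested regions (8.53% higher, 15.2% lower). With scaling on the rest of chromosome 13 the split in the D2 background was 207 higher and 63 lower. On chromosome 13 outside the cluster, 0.788% of tested regions were called in the B6 background. In the D2 background 38.8% of them were (25.3% higher, 13.5% lower). These comparisons share no library. In both backgrounds with the same sign, 121 regions were higher and 20 were lower with the D2 interval, 31.3% of the tested cluster regions against 0.194% of all tested regions (0.0891% higher, 0.105% lower) and 0.245% of the 11423 tested on chromosome 13 outside the cluster. Without 1 library of B6-13D2, the lower regions fell from 35 to 19 (replicate 1) or 15 (replicate 2) in the B6 background, and from 20 to 13 or 11 in both backgrounds. Without D2-13B6 replicate 3, the lower regions in the D2 background numbered 40. The median log2 fold change over the cluster was 0.29 in the B6 background and 0.99 in the D2 background, where all tested regions had medians of -0.01 and 0.04 and the rest of chromosome 13 had 0.003 and 0.38.

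The regions that followed the interval lay in the pseudogene-rich proximal stretch. There, 136 of 323 tested regions (42.1%) were called in both backgrounds with the same sign, 120 higher and 16 lower. In the distal stretch, which holds most of the zinc finger genes, 5 of 127 (3.94%) were, 1 higher and 4 lower. The share was 48.5% from 65.25 to 66.75 Mb, where 130 of 268 tested regions were called, and 0 of 19 from 65 to 65.25 Mb. On the proximal flank from 58 to 65 Mb 17 of 839 tested regions were called, and on the distal flank from 68 to 70 Mb 5 of 172. Higher regions ran from 65351369 to 67910571 and lower ones from 65482770 to 67610121.

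**Figure D1:**
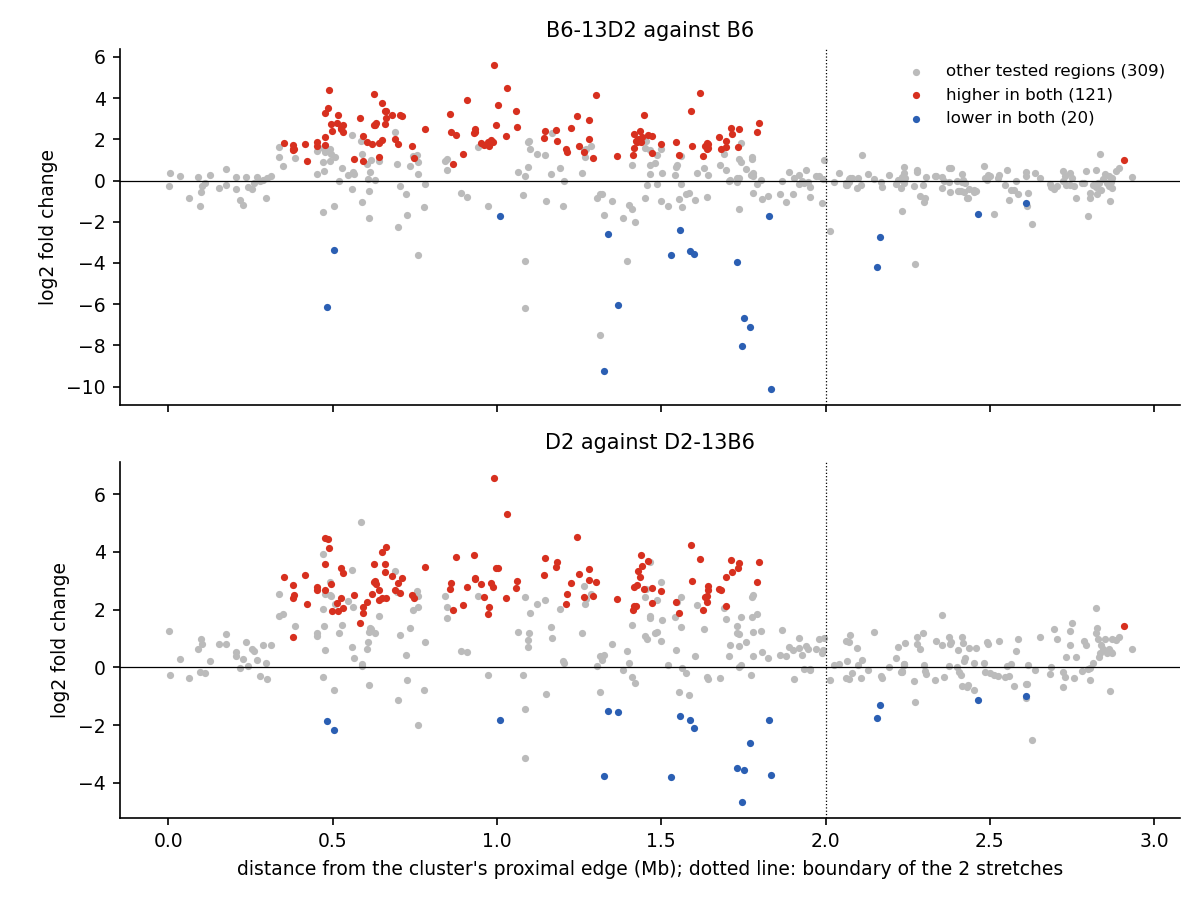
Log2 fold change of each of the 450 tested regions (vertical axis) against the distance from the proximal edge of the cluster in Mb, for B6-13D2 against B6 (top) and D2 against D2-13B6 (bottom). Red points are the 121 regions higher in both and blue points the 20 lower in both; all but 5 of them lie proximal to the dotted boundary between the stretches.

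**Figure D2:**
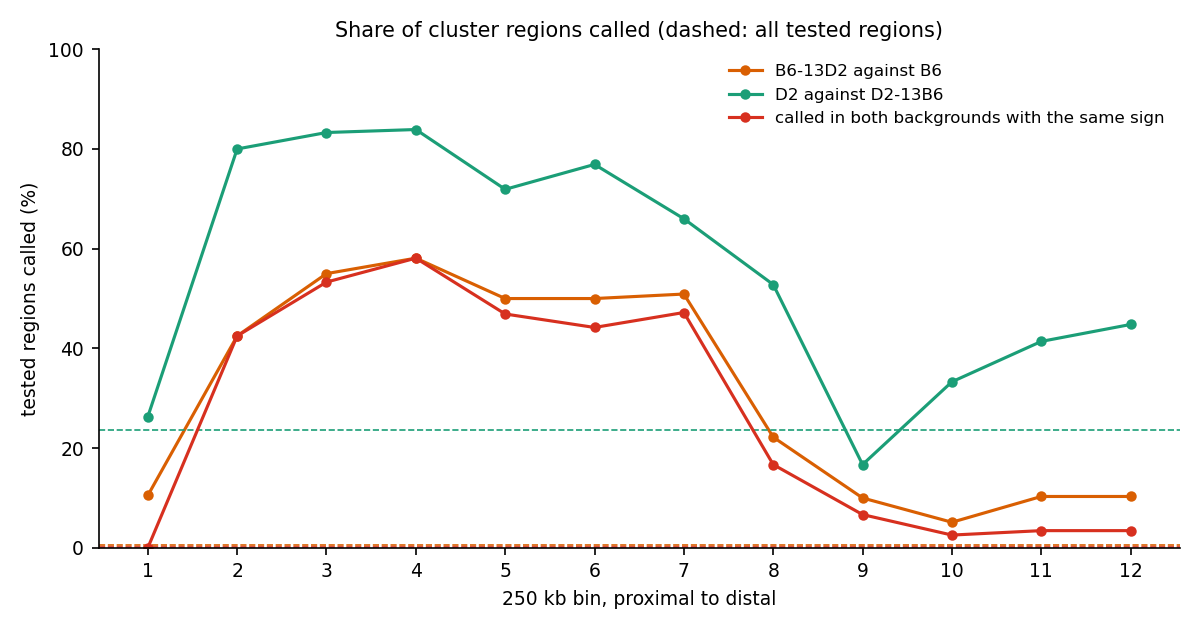
Percent of tested regions called in each 250 kb bin of the cluster, proximal to distal, with dashed lines at the percent over all tested regions. The share called in both backgrounds is 0 in the first bin, reaches 58.1% in bin 4 and is 6.67% or less from bin 9 on.

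Summed over the proximal stretch, normalised counts separated the lines by interval. The sum was 728, 773 and 785 normalised CPM for the B6 libraries and 1384 and 1459 for B6-13D2. For D2-13B6 it was 442, 517 and 405, and for D2 it ran from 1245 to 1395. The lines with the D2 interval lay above both lines with the B6 interval without overlap, by 1.87-fold in the B6 background and 2.88-fold in the D2 background. D2 and B6-13D2 overlapped (1311 ± 76.1, SD, n = 3, against 1422 ± 52.6, SD, n = 2). Exact permutation tests over libraries, two-sided, cannot go below p = 0.1 for these group sizes, and both interval contrasts gave p = 0.1 (0.167 after Benjamini-Hochberg adjustment over 20 such tests).

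In the distal stretch the sums lay close together. As mean ± SD, the B6 interval gave 599.1 ± 14.9 (B6, n = 3) and 648.5 ± 122.0 (D2-13B6, n = 3), and the D2 interval gave 558.7 ± 1.47 (B6-13D2, n = 2) and 634.0 ± 14.5 (D2, n = 3). The 3 libraries of D2-13B6 spread from 533 to 776 and covered the range of every other line.

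**Figure D3:**
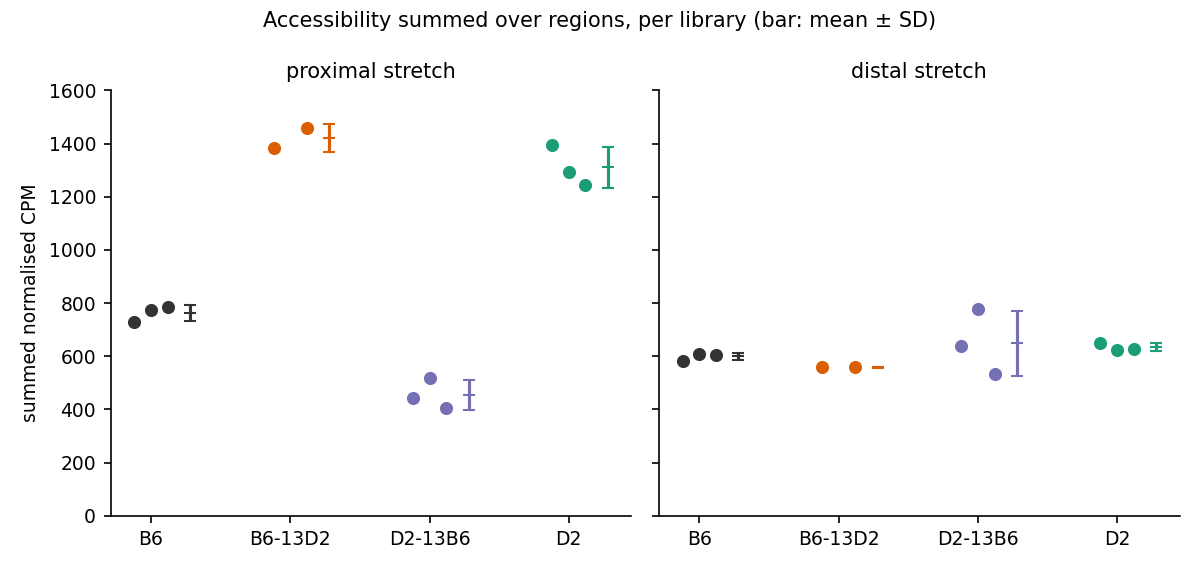
Normalised CPM summed over the proximal stretch (65 to 67 Mb, left) and the distal stretch (67 to 68 Mb, right), 1 point per library, with mean ± SD beside the points. In the left panel B6-13D2 and D2 lie between 1245 and 1459 and the lines with the B6 interval lie at or under 785.

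The region with the strongest call, chr13:65990568-65991884, is intergenic, and the nearest start site is that of Gm48220 at 2154 bp. It had 1.40, 1.59 and 1.36 normalised CPM in B6 and 64.5 and 73.9 in B6-13D2. D2-13B6 had 0.42, 0.73 and 1.07 and D2 had 73.6, 66.5 and 63.8. All 5 libraries with the D2 interval were far above all 6 with the B6 interval. The log2 fold change was 5.59 (SE 0.23, adjusted p = 4.16e-29) for B6-13D2 against B6 and 6.56 (SE 0.24, adjusted p = 6e-33) for D2 against D2-13B6, by edgeR's quasi-likelihood test. Its relative at chr13:66624894-66628272, whose sequence is printed above, had 13.1, 15.2 and 12.6 in B6 and 29.7 and 32.2 in B6-13D2. D2-13B6 had 5.35, 7.76 and 4.82 and D2 had 24.8, 24.6 and 22.4. This relative also rose, by 1.19 and 2.00 on the log2 scale.

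The opposite pair of the first printed set behaved as follows. The region chr13:66588310-66590725 had 3.46, 4.57 and 4.25 normalised CPM in B6 and 41.5 and 44.1 in B6-13D2. D2-13B6 had 2.16, 1.76 and 2.79 and D2 had 45.1, 39.1 and 40.8. The region chr13:66752393-66753581 had 5.32, 5.25 and 5.38 in B6 and 0 and 0.10 in B6-13D2. D2-13B6 had 1.14, 1.70 and 1.79 and D2 had 0.16, 0.16 and 0.06. Each separated the intervals without overlap, which the naming rule required within each background, and they did so in opposite directions. The third copy, chr13:66401449-66402623, had 2.73, 2.56 and 3.20 in B6 and 1.27 and 1.20 in B6-13D2. D2-13B6 had 1.14, 1.94 and 0.89 and D2 had 1.30, 1.93 and 1.20. It did not pass the test in either interval contrast (adjusted p = 0.0748 and 0.74), though it shares every printed base with the copy that fell.

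The other named regions that were higher in both backgrounds showed the same separation, which the naming rule required within each background. At chr13:66243713-66244487, a promoter region of Gm26754, a transcribed locus spanning several of these regions, B6 had 1.63, 1.40 and 1.88 normalised CPM and B6-13D2 had 13.42 and 16.04. D2-13B6 had 0.73, 0.76 and 0.76 there, and D2 had 18.96, 16.6 and 15.6. The intergenic region chr13:65661170-65662156 rose from a mean of 2.70 to 21.8 in the B6 background and from 1.03 to 18.5 in the D2 background. Further examples were chr13:66031232-66032165, at the start of Gm48222, with means of 0.32, 7.76, 0.25 and 9.48 (B6, B6-13D2, D2-13B6 and D2), and chr13:65485164-65485428, with 0.97, 11.3, 0.28 and 6.22. Among the 121 higher regions, 118 were at least 2-fold up in the B6 background and 121 in the D2 background. Their median log2 fold changes were 2.10 and 2.83, and the call with the smallest change in the B6 background was 0.82.

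Regions that were lower with the D2 interval were fewer, and several were at or near 0 in the lines with it. The fully masked region chr13:66834812-66835419 had 130, 81 and 114 counts in B6 and 0 and 0 in B6-13D2, so it was at least 33.2-fold lower there, taking 3 counts per library as the floor. It had 54, 57 and 48 counts in D2-13B6 and 5, 4 and 4 in D2, a log2 fold change of -3.71 (SE 0.37, edgeR adjusted p = 1.41e-11). In an intron of Gm26754, chr13:66326501-66327063 had 61, 53 and 56 counts in B6 and 0 and 0 in B6-13D2, at least 18-fold lower, and 34, 22 and 24 counts in D2-13B6 against 0, 4 and 2 in D2. Of the 20 lower regions, 9 were at the floor in B6-13D2, 4 in D2 and 3 in both. Their median log2 fold changes were -3.59 and -1.84, or -3.14 and -1.83 with the regions at the floor set to their bound.

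The remaining lower regions of the rule ranged from residual signal to the floor. At chr13:66599154-66602476, 8.18, 8.17 and 8.54 normalised CPM in B6 went with 0.68 and 0.70 in B6-13D2, and 5.20, 4.33 and 4.47 in D2-13B6 with 0.99, 1.13 and 1.15 in D2. Means (B6, B6-13D2, D2-13B6 and D2) were 9.77, 1.83, 4.12 and 1.27 at chr13:66555904-66557156. At chr13:66530220-66530835 there were 32, 17 and 34 counts in B6 and 4 and 0 in B6-13D2, and 18, 30 and 20 in D2-13B6 and 2, 2 and 1 in D2, which was at the floor and so at least 8.46-fold lower than D2-13B6. In every one of these regions the lines with the D2 interval lay below both others without overlap. The rule that named these regions required no overlap within each background.

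**Figure D4:**
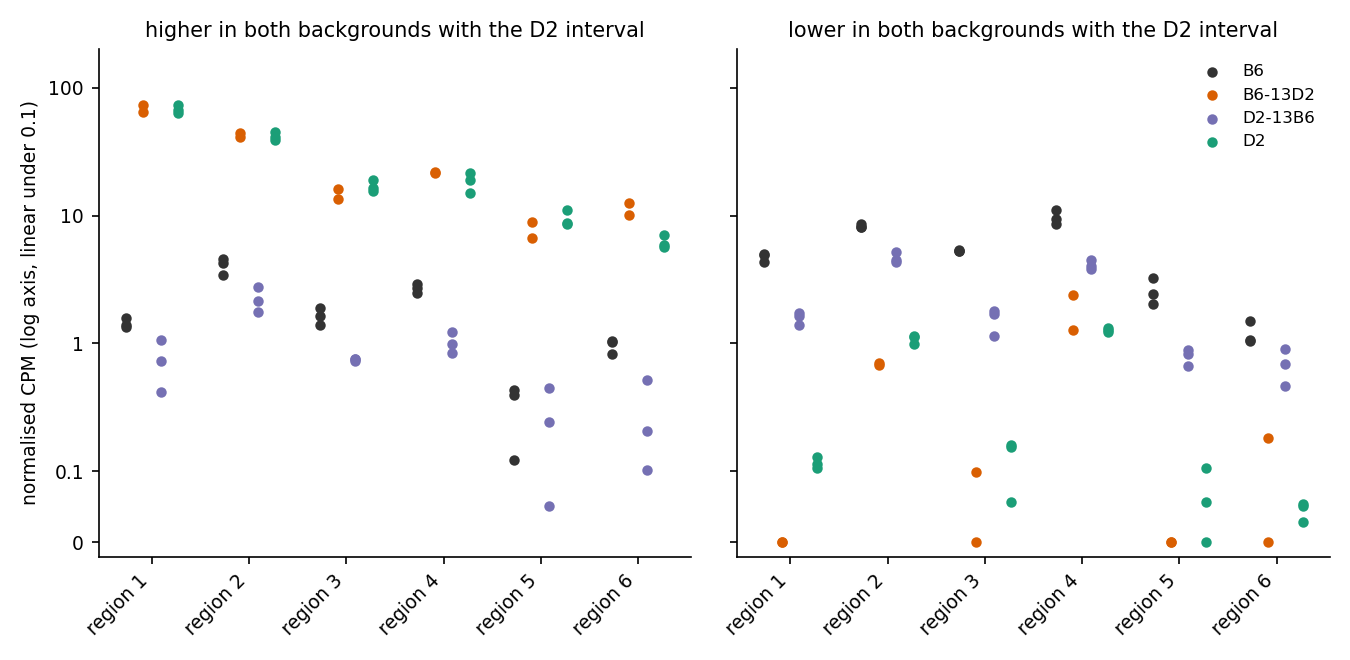
Normalised CPM per library (log axis, linear under 0.1) in the 6 named regions higher (left) and the 6 lower (right) with the D2 interval, 1 point per library, coloured by line. Regions stand in order of their p-values; left, from 1: starts 65990568, 66588310, 66243713, 65661170, 66031232, 65485164, and right: 66834812, 66599154, 66752393, 66555904, 66326501, 66530220. In each panel B6-13D2 and D2 lie on one side of B6 and D2-13B6. Regions were named only if libraries did not overlap within each background.

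Called regions mostly had near-copies, as proximal regions do in general. Of the 121 higher regions, 99 had a similar region in the cluster (81.8%), and of the 20 lower ones 17 had. By annotation the higher regions were 60 intergenic, 29 intronic, 26 at promoters and 6 in other exons, and none lay in a coding exon. All proximal regions were 48.1% intergenic, 26.9% intronic, 18.3% at promoters and 5.16% in other exons. Only 5 proximal regions (1.43%) lay in coding exons. In the proximal stretch 47.2% of the 252 tested regions with a repeated 100-base stretch were called in both backgrounds with the same sign, and 23.9% of the 71 without one. The 71 regions without such a stretch gave 16 higher and 1 lower. The parts of read placement and of copy number in these results were not tested.

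Regions without repeated stretches that rose were mostly weak. The one with the highest level, chr13:65380630-65381390 at the start of Gm40983, had means of 2.97, 8.71, 1.21 and 6.77 normalised CPM (B6, B6-13D2, D2-13B6 and D2). In an intron of Platr2, a long non-coding RNA of embryonic stem cells, chr13:65858322-65858612 had 0.24, 2.23, 0.20 and 1.29. Near the start of Zfp640, chr13:66697126-66697401 had 0.86, 2.53, 0.46 and 2.04. These examples were chosen after their values were seen. Summed over the proximal regions without a repeated stretch, the level was 208.0 ± 8.1 and 208.4 ± 34.4 in the lines with the B6 interval (B6 and D2-13B6, SD, n = 3) and 235.4 ± 2.45 and 252.3 ± 15.4 in those with the D2 interval (B6-13D2, n = 2, and D2, n = 3). These sums did not separate the lines by interval: D2-13B6 replicate 2 had 244.6, above both B6-13D2 libraries and D2 replicate 3 (236.1), and D2 against D2-13B6 gave a two-sided exact permutation p of 0.2 (0.286 adjusted).

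Signal was also summed over whole families. Moving a read between copies of a family leaves such a sum unchanged, but discarding the read or placing it elsewhere does not. The parts of read placement and of copy number in these sums were not tested. The family of 74 regions, which spans 65310706 to 66828205, summed to 125.7 ± 3.64 normalised CPM in B6 and 275.7 ± 6.87 in B6-13D2, and to 56.8 ± 1.61 for D2-13B6 against 232.9 ± 14.0 for D2 (SD, n = 3, 2, 3 and 3). The family of 36 regions that includes the first printed set summed to 138.6 ± 6.97, 295.3 ± 18.1, 64.1 ± 15.8 and 311.4 ± 25.6 in the same order. The family of 37 went from 74.1 to 194.7 and from 34.5 to 180.5. In each of these the D2 interval went with more than 2 times the signal, at ratios of 2.19 and 4.10 (B6 and D2 background) in the family of 74 and 2.63 and 5.24 in the family of 37. Not every family did so. A family of 21 regions had ratios of 1.06 and 1.16, and a family of 6 regions around the promoters of zinc finger genes at 67.6 Mb had 1.00 and 0.81. In 6 of the 34 families some members were higher and others lower in both backgrounds.

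At most promoters of the zinc finger genes themselves, no difference with the interval passed the test. Of the 29 listed genes, 27 had a region within 1000 bp of a start site, and Gm10324 and Rslcan18 had none. Only genes annotated as protein-coding were listed. Zfp640, near whose start a region rose as given above, was not among the 29. In the B6 background 2 of the 27 were higher and 1 was lower with the D2 interval, against 0.474% of all tested regions called. In the D2 background 2 were higher and 3 lower, against 23.7% of all tested regions. That contrast takes the B6 stretch of D2-13B6 to reach the distal promoters, which was not settled here. Of 1506 tested promoter regions on chromosome 13 outside the cluster, 3 were higher and 4 lower in the B6 background (0.465% called). In the D2 background 374 of these were higher and 148 lower (34.7%). The median log2 fold changes were -0.03 and -0.19, where the cluster as a whole had 0.29 and 0.99.

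The promoter of 2410141K09Rik, one of the few zinc finger genes of the proximal stretch, was the clear exception among the 27. It had 4.99, 6.71 and 5.52 normalised CPM in B6 and 24.3 and 25.1 in B6-13D2, while D2-13B6 averaged 2.29 ± 0.70 and D2 averaged 26.3 ± 3.31 (SD, n = 3). By edgeR this was a log2 fold change of 2.12 (SE 0.20, adjusted p = 6.48e-12) between the lines of B6 background and of 3.51 (SE 0.20, adjusted p = 1.01e-22) between those of D2 background. Its region belongs to the same family of 36 as the first printed set. The other promoter called higher, of Gm10139, was weak, and its call in the B6 background (edgeR adjusted p = 0.0172) was lost without B6 replicate 2 or 3, without either B6-13D2 library and at a minimum fold of 1.5. The call in the D2 background was lost with DESeq2. It had means of 0.12, 0.92, 0.09 and 0.44 (B6, B6-13D2, D2-13B6 and D2).

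Zfp729b, in the distal stretch, was the promoter that was lower in both backgrounds. Its region, chr13:67608972-67610121, had 9.48, 9.33 and 8.84 normalised CPM in B6 and 4.23 and 4.39 in B6-13D2. D2-13B6 had 16.4, 17.8 and 10.97 and D2 had 7.06, 8.11 and 7.71. By edgeR the log2 fold change was -1.10 (SE 0.21, adjusted p = 0.00159) between the lines of B6 background and -0.98 (SE 0.17, adjusted p = 4.76e-06) between those of D2 background. The groups did not overlap in either contrast. The promoter of its neighbour Zfp729a, of the same family, had log2 fold changes that passed in neither contrast. In the D2 background Zfp874a and Zfp458 were also lower in D2 than in D2-13B6, by -0.79 and -0.47.

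Lines with the same interval were also compared. Background and cell line cannot be told apart here. D2 and B6-13D2, both with the D2 interval, differed at 43 of 450 regions (9.56%, against 18.8% of all tested regions, 11.6% higher and 7.24% lower), with 12 higher and 31 lower in D2 (11 and 51 when scaled by total counts). This count fell to 23 without B6-13D2 replicate 1, 7 without B6-13D2 replicate 2 and 27 without D2 replicate 1. D2-13B6 and B6, both with the B6 interval, differed at 288 (64%, against 41.7% of all tested regions, 21.6% higher and 20.1% lower), with 28 higher and 260 lower in D2-13B6. The median log2 fold change of D2-13B6 against B6 was -1.01 in the cluster, -0.48 on the rest of chromosome 13 and -0.13 over all tested regions. The parent strains D2 and B6 differed at 228 cluster regions (50.7%, against 22.5% of all tested regions, 13.7% higher and 8.8% lower), 152 higher and 76 lower in D2.

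Zinc finger promoters were mostly higher in D2-13B6 than in B6, and cluster regions away from promoters mostly lower. Of the 27 promoters, 20 were higher and 2 lower in D2-13B6 than in B6, with a median of 0.67. The median was 0.44 without D2-13B6 replicate 2, 0.35 with total-count scaling and 0.98 with scaling on the rest of chromosome 13. Over promoters on chromosome 13 outside the cluster 456 were higher and 459 lower of 1506 tested (median -0.12). Of the cluster regions that are not promoters of any gene, 3 were higher and 211 lower of 343 (median -1.08). Such regions on chromosome 13 outside the cluster leaned the same way, with 1711 higher and 3624 lower of 9917 (median -0.52). Other coding genes of the cluster had 12 promoter regions, of which 4 are also zinc finger promoter regions, and the remaining 8 gave 4 higher and 4 lower. In D2 against B6, 14 zinc finger promoters were higher and 1 was lower, and the higher ones numbered 9, 8 and 7 without B6 replicate 1, B6 replicate 2 or D2 replicate 1. Promoters on chromosome 13 outside the cluster were 391 higher and 85 lower of 1506 in this comparison (median 0.18), so they leaned the same way. B6 libraries enter both comparisons.

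Zfp712 had the strongest call of this kind. Its promoter region, chr13:67059986-67061930, had 18.1, 15.3 and 19.4 normalised CPM in B6 and 17.9 and 15.1 in B6-13D2. D2-13B6 had 38.6, 47.8 and 28.7 and D2 had 28.6, 29.1 and 31.8. Both lines of the D2 background lay above both lines of the B6 background. By edgeR it was up by 1.12 on the log2 scale (SE 0.17, adjusted p = 1.41e-07) for D2-13B6 against B6 and 0.86 (SE 0.20, adjusted p = 0.000896) for D2 against B6-13D2. The shared promoter region of Uqcrb, a subunit of mitochondrial complex III, and Gm10767 had means of 9.33, 10.3, 18.5 and 13.9 (B6, B6-13D2, D2-13B6 and D2). Zfp459 went the other way, with 24.0 ± 0.93 for B6 and 12.6 ± 2.83 for D2-13B6 (SD, n = 3), and means of 16.5 for B6-13D2 and 14.6 for D2. Rsl1, which represses male-specific liver genes, had 14.1, 11.5, 18.01 and 14.1, and passed in none of these comparisons.

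**Figure D5:**
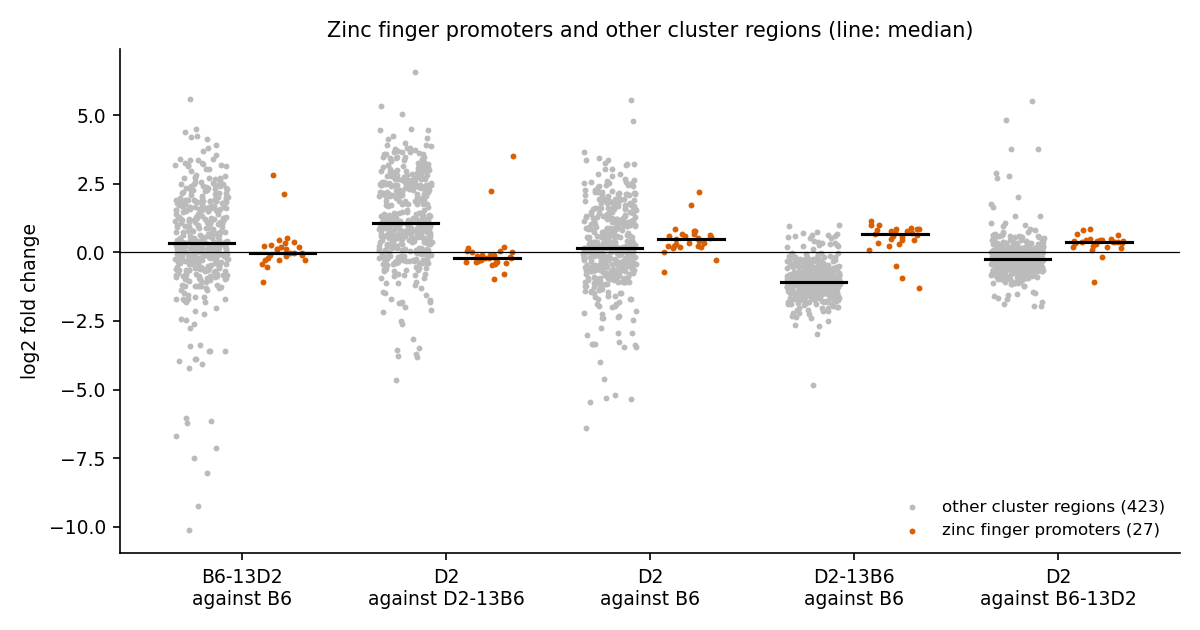
Log2 fold change (vertical axis) of the 27 zinc finger promoter regions (orange) and the other 423 tested cluster regions (grey) in each comparison between lines, with a line at the median. In D2-13B6 against B6 the zinc finger promoters have a median of 0.67, above 0, while most grey points lie below 0.

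The size of the interval's effect differed between backgrounds at 96 cluster regions (interaction, 21.3%, against 6.54% of all tested regions, 4.55% positive and 1.99% negative). At 95 of them the log2 fold change with the D2 interval was more positive in the D2 background, and at 1 it was more positive in the B6 background. Scaling on the rest of chromosome 13 gave 9 positive and 51 negative regions. The count was 41 without either library of B6-13D2 and 56 without D2 replicate 1. The median interaction was -0.81 in the cluster and -0.34 on the rest of chromosome 13. There 12.4% of 11423 tested regions were called, 509 positive and 902 negative, so the rest of the chromosome also leaned negative. One intronic region was called with the interval in the B6 background only, with an interaction that passed. At chr13:67797426-67799708, in an intron of 4930525G20Rik, B6 had 19.5, 20.1 and 18.5 normalised CPM, while B6-13D2 had 6.00 and 5.88, D2-13B6 had 3.69, 3.70 and 4.09 and D2 had 3.55, 3.64 and 3.78. B6 alone was high, and the line with the B6 interval in the D2 background was at the level of D2.

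Other regions set D2-13B6 apart from the remaining lines. At chr13:67742697-67744455, the promoter of Zfp85os, an antisense gene of Zfp85, it had 3.48, 3.61 and 3.51 normalised CPM where the other lines had 7.93 to 11.7. At chr13:66183081-66184609, in an exon of Gm17514, it had a mean of 1.01, B6 had 3.44, and B6-13D2 and D2 had 12.9 and 12.8. That region was also among those higher in both backgrounds with the D2 interval (log2 fold changes of 1.90 and 3.66). The interaction of opposite sign was in a coding exon of Rslcan18, a zinc finger gene, at chr13:67112005-67112894, with means of 2.25, 5.24, 3.26 and 3.87 (B6, B6-13D2, D2-13B6 and D2). Lower in D2 than in B6-13D2 were chr13:65626856-65627215 (means of 1.00 and 3.52) and chr13:67856809-67858245 (4.14 and 8.86). One region, chr13:66807483-66808629, was called in both interval contrasts with opposite signs (-0.91 and 0.54), and was named after its values were seen.

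The other of the 2 regions with the highest mean level passed in no comparison. At chr13:65239683-65242817, the promoter of Gm36445, B6 had 38.7, 43.6 and 41.2 normalised CPM, B6-13D2 had 33.6 and 32.1, D2-13B6 had 39.9, 51.0 and 30.2, and D2 had 48.0, 39.7 and 39.2. The lines overlapped except B6-13D2 with B6 and with D2, where B6-13D2 was lower.

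Sequence motifs were counted in the central 300 bp of each region on both strands. The GC box GGGCGG was in 13.0% of cluster regions and 12.6% of all regions, and in 14.0% of the regions higher in both and 25.0% of the 20 lower in both. The E-box CACGTG was in 3.77% of cluster regions and 5.25% of all. These shares describe letters and show no binding.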

How the data were processed

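For 11 ATAC-seq libraries the authors deposited 1 table of raw, whole-number counts by region. Per the submitters' processing notes, Trimmomatic 0.39, BWA 0.7.5, Picard 2.0.1, MACS 1.4.2, bedtools 2.9.2, edgeR 3.34.1 and mm10 were used. Their settings, and how reads with several matches were treated, are not given in the sources used here. Counts were tested with edgeR 4.0.16 in R 4.3.3 (TMM, filterByExpr, trended dispersion, robust quasi-likelihood fit of all 11 libraries), and p-values were adjusted by Benjamini-Hochberg over all 246840 tested regions. Total counts were 15198496 to 43042955, and counting error is smaller in the deeper libraries of D2 and D2-13B6, though D2-13B6 libraries differed most from each other. Counting error does not include PCR copies. Genes came from GENCODE M21 and sequence from GRCm38, and similar regions were found with BLAST+ 2.17.0. The interaction is the log2 fold change of B6-13D2 against B6 less that of D2 against D2-13B6.

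Named regions were the 6 higher and 6 lower in both backgrounds with the smallest larger p and no overlap, the 3 in each direction by interaction p, the 2 in each direction between lines with the same interval, the 2 with the highest mean, and the region nearest each zinc finger start within 1000 bp. The rule gave 1 positive interaction. The members, lists and rules were chosen with earlier results of these data known. The criterion of at least 3 zinc finger patterns in a protein could not be applied, since no protein table was used here. In simulated data with 200 changed regions among 245767 tested, 16% of 2-fold and 88% of 4-fold changes were recovered for B6-13D2 against B6, and 54% and 99% for D2 against D2-13B6. Within lines, chi-square per degree of freedom over cluster regions was 1.73 to 4.7, so no pair of libraries was a copy. Alternatives were RLE, total-count and chromosome 13 scaling, other filters, a minimum fold, DESeq2 1.42.0, a replicate block, only the libraries compared, and leaving out each library.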

Additional observations from a re-analysis of the deposited data

Results flagged for a closer look

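The effect of the D2 interval differed between the backgrounds at 96 of 450 tested cluster regions, by the interaction term of edgeR's quasi-likelihood fit. That is 21.3%, against 12.4% on chromosome 13 outside the cluster and 6.54% of all tested regions. With 1 cell line per genotype, a difference between backgrounds cannot be told apart from a difference between cell lines. Among the regions described above, the interaction (log2) was -1.76 at chr13:66183081-66184609, -1.64 at chr13:67797426-67799708, -1.48 at chr13:67742697-67744455, -1.48 at chr13:66599154-66602476, -1.39 at the promoter of 2410141K09Rik (chr13:66440817-66441733), -1.35 at chr13:66243713-66244487 and -1.16 at chr13:65661170-65662156. It was 0.98 at chr13:67112005-67112894. The values of -6.41 at chr13:66834812-66835419 and -3.12 at chr13:66752393-66753581 rest on libraries with 0 to 2 counts in B6-13D2, so their size depends on the prior count of the fit.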

How the results depend on the processing

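No named region or zinc finger promoter that was called changed sign. For 159 such values the other settings gave 3168 refitted values. Of these, 2988 kept their side of the threshold, 128 lost the call and 52 gained it. The count called in both backgrounds was 102 to 149 under the other settings. A minimum fold of 1.5 gave 147 regions for D2 against B6, 164 for D2-13B6 against B6, 6 for D2 against B6-13D2 and 8 for the interaction, and left 1 and 3 zinc finger promoters higher in D2 and in D2-13B6 than in B6, since it asks for more than a difference from 0. Scaling on chromosome 13 outside 58 to 70 Mb gave 60 interaction regions (9 positive, 51 negative) and 207 higher against 63 lower for D2 against D2-13B6, where the median over all regions moved to -0.30. Total counts gave 11 higher against 51 lower for D2 against B6-13D2, and moved the median of all regions to -0.43 for D2-13B6 against B6. Fitting only the libraries compared gave 70 for D2 against B6-13D2. DESeq2 gave 121 regions in both backgrounds.

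Leaving out each library gave 112 to 170 regions for B6-13D2 against B6, 250 to 279 for D2 against D2-13B6, 191 to 246 for D2 against B6, 239 to 288 for D2-13B6 against B6, 7 to 55 for D2 against B6-13D2, 41 to 116 for the interaction and 107 to 147 in both backgrounds. Zinc finger promoters higher were 7 to 16 for D2 and 16 to 23 for D2-13B6, each against B6. The interaction fell to 41 without B6-13D2 replicate 1, to 41 without replicate 2 and to 56 without D2 replicate 1. D2 against B6-13D2 fell to 23, 7 and 27 without these libraries. Zinc finger promoters higher in D2 than in B6 fell to 9, 8 and 7 without B6 replicate 1, B6 replicate 2 and D2 replicate 1. A line left with 1 library is assumed to vary like the others.

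With the replicate number as a block, 161, 276, 235, 293, 52 and 94 regions were called in the order B6-13D2 against B6, D2 against D2-13B6, D2 against B6, D2-13B6 against B6, D2 against B6-13D2 and interaction, and 141 in both backgrounds. Libraries with the same number had correlations of -0.064 to 0.13 in their deviations, 2 of 15 over 0.1. Pairs with different numbers were not compared, so these values do not show whether the number marks a batch. Depth limits regions near 0, and 28 were not tested. In simulated data, which changed no region near 0, 2-fold changes in the B6 background were mostly missed.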
